A study of Rattus norvegicus with 9 samples.

Results

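The genes that encode the protein subunits of the mitochondrial ribosome were followed in rat horizontal basal cells, a reserve stem cell of the olfactory epithelium, in culture. Members were all gene symbols that begin with Mrps or Mrpl and go on with a number, and 69 of the 17315 genes in the count tables met this rule. They comprised 28 Mrps and 41 Mrpl symbols. By their known place in the mammalian ribosome, 25 belong to the small subunit, 43 to the large subunit and 1 to neither. Enough reads for a test were counted for 67 members, among 10128 genes tested in all.

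The cells came from primary dissociation of rats of the SD strain and were at passage 7. They had received 0.1% DMSO as vehicle (labelled time 0), 50 nM PMA for 6 h or 50 nM PMA for 12 h, with 3 libraries of each kind. PMA, phorbol 12-myristate 13-acetate, activates protein kinase C, and the study used it to model the acute activation of these cells. No vehicle culture was labelled 6 h or 12 h, so the effects of PMA and of time in culture cannot be told apart. The labels do not say what the replicate numbers stand for, so p-values measure the spread between these libraries, which may be technical.

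Mitochondria translate the few proteins encoded by their own genome, all of them subunits of the oxidative phosphorylation complexes, on a ribosome of their own. The ribosomal RNAs of this particle come from mitochondrial DNA, while each of its proteins is encoded in the nucleus, made on cytosolic ribosomes and imported. Some of these proteins descend from bacterial ribosomal proteins, and others were added to the particle during the evolution of mitochondria. The activity of the particle is tied to the demand for respiration, and in many tissues it is high in cells that grow and divide.

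Levels are given in CPM, a gene's read count scaled to a fixed library total after normalization by TMM, a method that makes the bulk of the genes comparable between libraries. CPM does not correct for gene length, so levels of different genes are not compared. Changes are log2 fold changes with their SE from edgeR's quasi-likelihood model. A change is called when its p-value, adjusted over all 10128 genes by the Benjamini-Hochberg method, is under 0.05. Libraries held 13601635 to 19001819 reads in genes. Each tested member but Mrpl30 had at least 20 reads in every library, and the lowest count of Mrpl30 was 4.

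Mitochondrial ribosomal protein genes were lower in PMA-treated cells at both times. Their summed level averaged 2276 ± 81.1 CPM in vehicle, 1338 ± 39.4 CPM at 6 h and 1404 ± 104 CPM at 12 h (SD, n = 3 each). The PMA libraries lay between 1295 and 1522 CPM, below all vehicle libraries, which lay between 2225 and 2370 CPM. The sum stood at 0.588 of the vehicle level at 6 h and at 0.617 of it at 12 h. Small subunit genes summed to 452 ± 9.72 CPM at 6 h and 471 ± 24.0 CPM at 12 h, against 803 ± 33.3 CPM in vehicle. Large subunit genes summed to 876 ± 31.2 CPM at 6 h and 922 ± 80.7 CPM at 12 h, against 1461 ± 47.2 CPM in vehicle. The ratio of small to large subunit CPM within a library was 0.508 to 0.523 at 6 h and 0.493 to 0.537 at 12 h, against 0.545 to 0.555 in vehicle, so the PMA libraries were below the vehicle libraries in this ratio too. These are bulk libraries, in which fewer cells with high levels and less RNA per cell cannot be told apart.

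Genes of the cytosolic ribosome, which translates all nuclear transcripts, moved the other way. Their summed level was 86929 ± 6939 CPM at 6 h and 91231 ± 10556 CPM at 12 h, against 47838 ± 1399.96 CPM in vehicle (SD, n = 3 each). Of 76 tested cytosolic ribosomal protein genes, 69 rose and 2 fell at 6 h, with a median log2 fold change of 0.87, and 73 rose and 3 had no call at 12 h, with a median of 0.92. Of all genes tested, 37.8% were called higher and 39.0% lower at 6 h, and 37.7% higher and 38.2% lower at 12 h. In reads, which no scaling touches, members made up 14.8 to 16.4 per 1000 cytosolic ribosomal protein reads at 6 h and 14.8 to 16.2 at 12 h, against 46.5 to 48.1 in vehicle. This ratio stood at 0.324 of the vehicle value at 6 h and at 0.325 at 12 h. The opposite directions held under each scaling tried: with library totals alone the medians at 6 h were -1.32 for members and 0.33 for cytosolic ribosomal proteins.

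**Figure D1:**
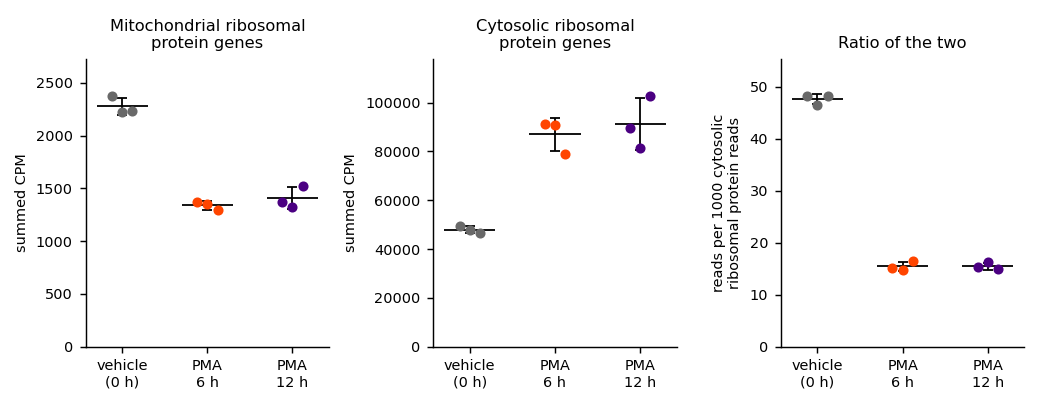
Summed CPM of the mitochondrial ribosomal protein genes, summed CPM of the cytosolic ribosomal protein genes, and reads of the mitochondrial set per 1000 reads of the cytosolic set, for vehicle, PMA 6 h and PMA 12 h. Each point is 1 library, and bars show the mean and SD of 3 libraries. The mitochondrial sum of each PMA library lies at or below 1522 CPM, against at least 2225 CPM in vehicle, and the ratio lies at or below 16.4 in PMA libraries, against at least 46.5 in vehicle.

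At 6 h, 55 of the 67 tested members were called lower than in vehicle, 0 were called higher and 12 had no call. The share called lower was 82.1% of members, beside 39.0% of all genes tested, and 37.8% of all genes were called higher. Beside the 0 higher calls, edgeR gave 0 higher members at an unadjusted p under 0.05, limma-voom called 0 higher and DESeq2 called 1, Mrpl52 (adjusted p = 0.044). Members without a call were sensitive to scaling: with upper-quartile scaling 61 members were lower at either time, Mrpl43, Mrpl44, Mrpl46, Mrps2, Mrps21 and Mrps22 being added at 6 h and Mrpl15, Mrpl30, Mrpl41, Mrpl46, Mrpl48 and Mrps31 at 12 h. The members' median log2 fold change was -0.79, beside -0.03 for all genes, and the range was -2.17 to 0.35. In 21 members the level was at least 2-fold lower. The 3 PMA libraries did not overlap the 3 vehicle libraries in 57 members, of which 56 were lower and 1 higher, beside 79.0% of all genes that separated in either direction.

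At 12 h, 55 members were called lower than in vehicle, 1 was called higher and 11 had no call. The share called lower was again 82.1%, beside 38.2% of all genes, and 37.7% of all genes were called higher. The median was -0.75, beside -0.02 for all genes, with a range of -2.21 to 0.64 and 21 members at least 2-fold lower. PMA and vehicle libraries did not overlap in 55 members, 54 lower and 1 higher, beside 78.7% of all genes. The comparisons of 6 h and 12 h with vehicle share the vehicle libraries, so their results are not independent of each other.

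Between the PMA times fewer members moved. At 12 h 10 members were called higher than at 6 h, 7 were called lower and 50 had no call. All genes gave 25.3% higher and 25.8% lower calls, so the members' shares of 14.9% and 10.4% were below the background. The libraries of the PMA times did not overlap in 15 members that were higher and 9 that were lower at 12 h, beside 58.0% of all genes. The members' median log2 fold change between the PMA times was 0.06, beside 0.01 for all genes.

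Genes of both subunits were mostly lower. Among all genes tested, 39.0% were called lower at 6 h (median log2 fold change -0.03) and 38.2% at 12 h (median -0.02). Called higher were 37.8% and 37.7%. Of 25 small subunit genes 21 were called lower, with a median log2 fold change at 6 h of -0.82, and of 41 large subunit genes 34 were called lower, with a median of -0.78. At 12 h 23 small subunit genes were lower (median -0.76), and 32 large subunit genes were lower and 1 higher (median -0.72). Members were also sorted by descent from general knowledge, with no annotation to check it against. By that sorting, 36 of 39 members with a direct bacterial counterpart were lower at each time, with medians of -0.82 at 6 h and -0.79 at 12 h. Of the 27 other subunits, 19 were lower at each time, with medians of -0.54 and -0.62, and Mrps18a and Mrps18b, diverged relatives of a bacterial protein, were counted here. The difference between these classes was not tested.

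**Figure D2:**
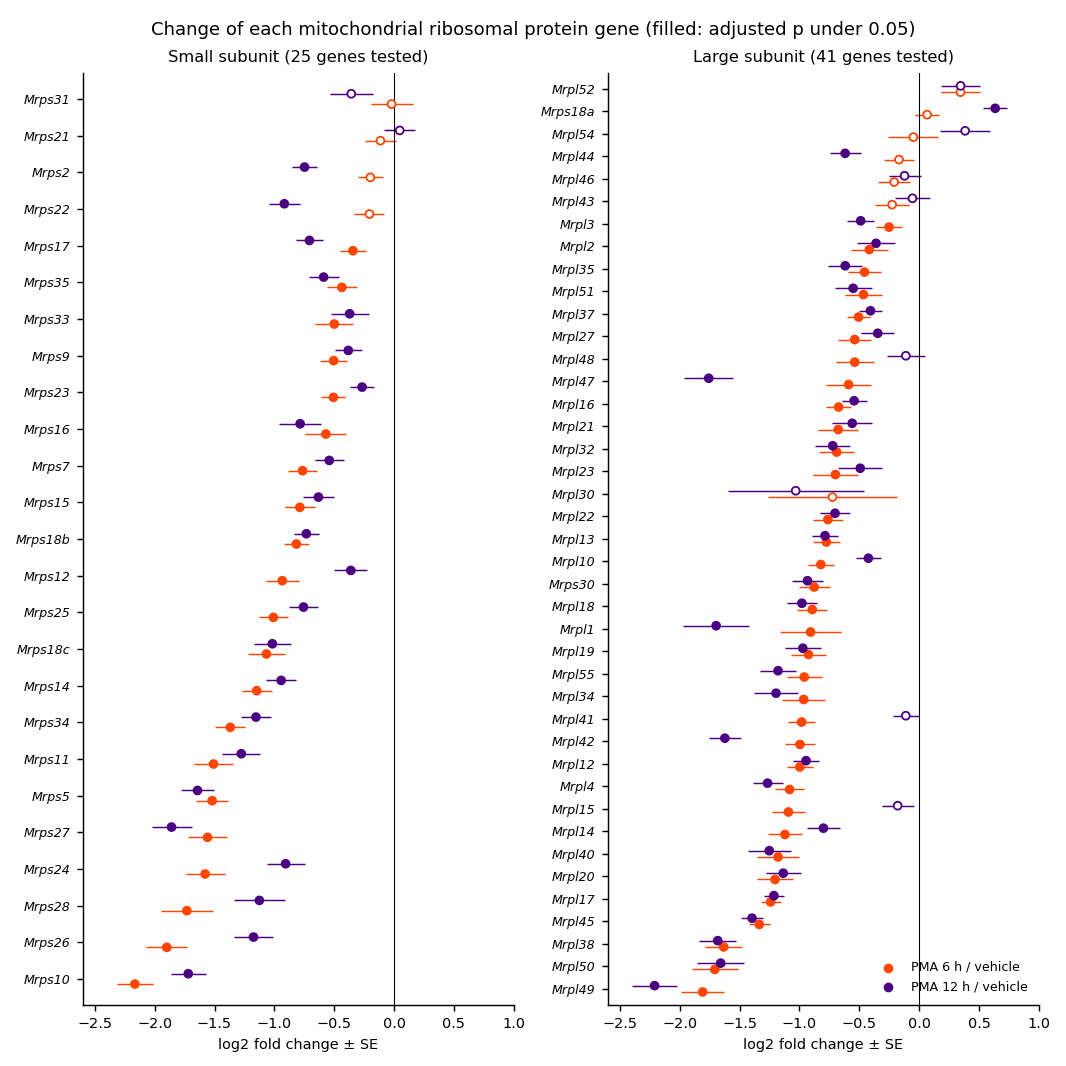
Log2 fold change of each tested subunit gene, ordered by its value at 6 h, for PMA 6 h over vehicle and PMA 12 h over vehicle, with SE from edgeR's model. Filled points passed an adjusted p under 0.05. Most small subunit and large subunit genes lie left of 0 at both times, with Mrps18a as the only filled point right of 0, at 0.64 at 12 h, a call lost without normalization.

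The deepest falls at 6 h were in small and large subunit genes alike. Mrps10, the mitochondrial counterpart of a bacterial protein of the small subunit head, stood at 30.2, 26.6 and 26.8 CPM in vehicle, 6.36, 6.39 and 5.90 CPM at 6 h and 9.66, 8.35 and 7.28 CPM at 12 h. All PMA libraries were far below all vehicle libraries, and the level at 6 h was 4.49-fold lower than in vehicle (log2 fold change -2.17 ± 0.15, adjusted p = 5.9e-10). At 12 h it was 3.29-fold lower than in vehicle (adjusted p = 1e-08). Mrps26 encodes a small subunit protein without a bacterial counterpart. It stood at 52.8, 52.5 and 53.8 CPM in vehicle, 15.1, 15.5 and 12.2 CPM at 6 h and 20.1, 18.7 and 32.1 CPM at 12 h, with the third 12 h library well above the other two and still below every vehicle library. Its log2 fold change was -1.90 ± 0.17 at 6 h (adjusted p = 5.4e-08) and -1.17 ± 0.16 at 12 h (adjusted p = 9.1e-06). Mrps28, counted here among the proteins with a bacterial relative, stood at 11.1, 13.9 and 9.88 CPM in vehicle, 3.60, 4.33 and 2.66 CPM at 6 h and 5.58, 5.37 and 5.03 CPM at 12 h. Its libraries separated at both times, at log2 fold changes of -1.73 ± 0.22 and -1.13 ± 0.21.

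Among the large subunit genes, Mrpl49, a mitochondria-specific protein, fell most at both times. It stood at 26.1, 26.3 and 23.5 CPM in vehicle, 6.85, 7.79 and 7.05 CPM at 6 h and 7.35, 4.50 and 4.42 CPM at 12 h. PMA and vehicle libraries did not overlap, and the level was 3.50-fold lower at 6 h (adjusted p = 5.8e-08) and 4.63-fold lower at 12 h (adjusted p = 7.4e-09). The first 12 h library was above the other two, and without it the fall from 6 h to 12 h passed the test (log2 fold change -0.69, adjusted p = 0.0071). Mrpl50, also mitochondria-specific, stood at 20.2, 17.7 and 17.7 CPM in vehicle, 3.94, 5.88 and 7.11 CPM at 6 h and 5.65, 5.74 and 6.24 CPM at 12 h. Its log2 fold changes of -1.71 ± 0.19 at 6 h and -1.66 ± 0.19 at 12 h were close to each other, and the libraries of the PMA times overlapped. Mrpl38, which encodes a protein of the central protuberance, stood at 47.6, 38.1 and 34.5 CPM in vehicle, 10.4, 14.5 and 13.9 CPM at 6 h and 11.6, 11.8 and 14.1 CPM at 12 h. Every PMA library was below every vehicle library, with log2 fold changes of -1.63 ± 0.15 and -1.68 ± 0.16.

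At 12 h Mrps27, Mrpl47 and Mrpl1 joined Mrpl49, Mrps10 and Mrpl38 as the members with the largest falls. Mrps27, a protein with pentatricopeptide repeats that binds mitochondrial RNA in human cells, stood at 7.89, 6.54 and 8.24 CPM at 12 h, against 28.4, 26.5 and 27.3 CPM in vehicle, and its log2 fold change was -1.86 ± 0.17 (adjusted p = 1.8e-08). Without PMA 6 h replicate 2 it was also lower at 12 h than at 6 h (log2 fold change -0.46, adjusted p = 0.03). Mrpl45 had the lowest adjusted p-values among the large subunit genes at both times and stood at 97.6, 99.8 and 108 CPM in vehicle, 40.7, 38.2 and 41.8 CPM at 6 h and 36.8, 41.8 and 37.2 CPM at 12 h. Its protein lies at the exit of the nascent chain, where it ties the ribosome to the inner membrane, and the 3 libraries of each group stayed close together, so that its log2 fold changes of -1.34 ± 0.09 and -1.40 ± 0.09 had adjusted p-values of 2.6e-10 and 1.8e-10. Mrpl12, whose protein forms the stalk that recruits translation factors, stood at 83.7, 82.9 and 79.2 CPM in vehicle, 44.7, 43.7 and 34.9 CPM at 6 h and 42.7, 36.8 and 48.4 CPM at 12 h. It fell somewhat more than the median member, with log2 fold changes of -0.997 ± 0.11 and -0.94 ± 0.11.

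**Figure D3:**
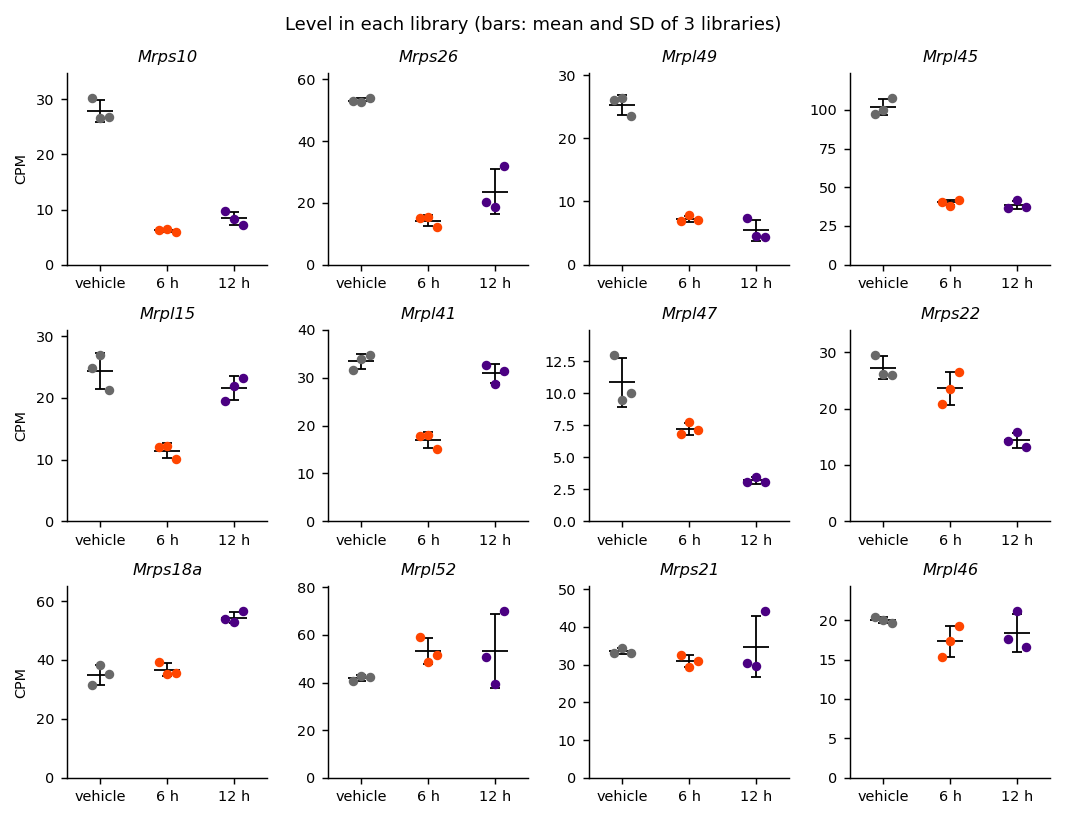
CPM of 12 members in each library, in vehicle, PMA 6 h and PMA 12 h, each panel with its own axis from 0; bars show the mean and SD of 3 libraries. In Mrps10, Mrps26, Mrpl49 and Mrpl45 all PMA libraries lie below all vehicle libraries; Mrpl15 and Mrpl41 are lowest at 6 h, Mrpl47 and Mrps22 are lowest at 12 h, and Mrps18a is highest at 12 h, a rise that the fit without normalization did not call. Mrpl52, Mrps21 and Mrpl46 had no call.

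The remaining members that were lower at both times with no call between the PMA times numbered 36 beyond Mrpl49, Mrpl50, Mrpl38, Mrps27, Mrpl45 and Mrpl12. Among the small subunit genes of this pattern, Mrps5 (-1.52 at 6 h), Mrps11 (-1.51) and Mrps34 (-1.37) fell most, and Mrps35 (-0.44) and Mrps33 (-0.50) least, as log2 fold changes. Among those of the large subunit, Mrpl17 (-1.24) and Mrpl20 (-1.20) followed Mrpl45, and Mrpl2 (-0.42) and Mrpl3 (-0.25) fell least. The calls of Mrpl3 at 6 h and of Mrpl2 at either time were close to the threshold, at adjusted p = 0.047 for Mrpl3 and 0.022 and 0.045 for Mrpl2. The call of Mrpl3 at 6 h was lost without vehicle replicate 1 (log2 fold change -0.16), vehicle replicate 2 (-0.23), PMA 6 h replicate 1 (-0.22), PMA 6 h replicate 2 (-0.21) or PMA 12 h replicate 1 (-0.25). It was lost as well with RLE scaling (adjusted p = 0.052) and DESeq2 (0.064). That of Mrpl2 at 6 h was lost without vehicle replicate 1, vehicle replicate 3 or PMA 6 h replicate 1 (-0.36, -0.39 and -0.36), and at 12 h without vehicle replicates 1 or 3, PMA 6 h replicates 1 or 2 or PMA 12 h replicates 1 or 2 (-0.36 to -0.22). That of Mrpl51 at 6 h was lost without PMA 6 h replicate 3 (-0.29). At 12 h the calls of Mrps33, Mrpl27, Mrpl23 and Mrps23 were each lost without PMA 12 h replicate 2 (-0.31, -0.25, -0.37 and -0.22). They were lost without vehicle replicate 1 for Mrps33 and Mrpl27 (-0.35 and -0.32), vehicle replicate 2 for Mrps33, Mrpl23 and Mrps23 (-0.37, -0.47 and -0.22), vehicle replicate 3 for Mrps33, Mrpl27 and Mrpl23 (-0.39, -0.28 and -0.47) and PMA 12 h replicate 1 for Mrps33, Mrpl27 and Mrpl23 (-0.31, -0.33 and -0.40).

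Proteins that sit together in the ribosome did not share 1 size of change. Of the central protuberance genes, Mrpl38 and Mrpl40 had log2 fold changes at 6 h of -1.63 and -1.18, Mrpl18 and Mrpl27 of -0.89 and -0.54, and Mrpl46 of -0.21 with no call. Around the exit tunnel the values at 6 h were -1.34 for Mrpl45, -0.76 for Mrpl22, -0.70 for Mrpl23 and -0.59 for Mrpl47, and -0.17 with no call for Mrpl44. These groupings by position were made after the values had been seen and are a description.

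Some of these genes start near the start of a neighbour on the other strand, and how common this is over all genes was not counted. The sequences of a pair of such stretches between starts are shown because the genes on their sides differed in response. They were taken from RefSeq for the GRCr8 assembly, as the counts were made on another build. Motif letters are in capitals, and each sequence runs from the annotated start of the second gene to that of the first, read in the direction of the first.
Mrpl49-Fau (chr1:212779328-212779512, minus strand): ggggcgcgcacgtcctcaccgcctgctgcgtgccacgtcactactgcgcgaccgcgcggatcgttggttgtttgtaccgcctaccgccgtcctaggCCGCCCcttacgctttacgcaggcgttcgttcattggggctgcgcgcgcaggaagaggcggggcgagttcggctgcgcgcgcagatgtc
Mrps11-Mrpl46 (chr1:142117031-142117263, plus strand): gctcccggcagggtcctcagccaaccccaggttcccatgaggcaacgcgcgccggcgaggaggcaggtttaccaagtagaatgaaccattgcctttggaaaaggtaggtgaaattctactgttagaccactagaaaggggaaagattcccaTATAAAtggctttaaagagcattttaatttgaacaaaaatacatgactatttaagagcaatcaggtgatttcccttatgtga
The 185 bases between Mrpl49 and Fau hold 1 GC box (CCGCCC, the reverse of GGGCGG), and the 233 bases between Mrps11 and Mrpl46 hold 1 TATA box (TATAAA).

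Fau encodes a ubiquitin-like protein fused to a protein of the cytosolic small subunit. It averaged 723 CPM at 6 h and 818 CPM at 12 h, against 373 CPM in vehicle, and rose by a log2 fold change of 0.96 at 6 h (adjusted p = 5.5e-05) and 1.13 at 12 h (adjusted p = 1.3e-05), while Mrpl49 fell by 1.81 and 2.21 on the same scale. Mrps11 and Mrpl46 encode proteins of different subunits of the mitochondrial ribosome. Mrps11 stood at 29.4, 26.7 and 30.1 CPM in vehicle, 10.2, 11.6 and 8.61 CPM at 6 h and 11.6, 9.51 and 14.6 CPM at 12 h, and all its PMA libraries were below its vehicle libraries (log2 fold changes -1.51 ± 0.16 and -1.28 ± 0.16). Mrpl46, with a fold known from nucleotide hydrolases, stood at 20.4, 20.1 and 19.7 CPM in vehicle, 15.4, 17.4 and 19.3 CPM at 6 h and 17.6, 21.1 and 16.6 CPM at 12 h. Its 6 h libraries lay below all vehicle libraries, and its 12 h libraries overlapped those of vehicle. Neither PMA time gave a call (log2 fold changes -0.21 ± 0.13 and -0.12 ± 0.13, adjusted p = 0.16 and 0.42). With upper-quartile scaling Mrpl46 was called lower at both times (-0.47 and -0.39, adjusted p = 0.0044 and 0.014).

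In all, 17 pairs of a member and a gene that starts within 1000 bases on the opposite strand, pointing away from it, were found, with Mrps11 and Mrpl46 as 1 pair, and in 14 pairs both genes were tested. Leaving out the pair of members Mrps11 and Mrpl46, 13 neighbours remained: at 6 h 6 were lower, 4 higher and 3 had no call, beside 39.0% of all genes called lower and 37.8% called higher. The higher ones were Ppp1r10, a regulator of protein phosphatase in the nucleus, beside Mrps18b (3.06 for Ppp1r10 and -0.82 for Mrps18b, as log2 fold changes at 6 h), Klc4, a kinesin light chain, beside Mrpl2 (1.98 and -0.42), Gga3, an adaptor of Golgi transport, beside Mrps7 (1.42 and -0.76), and Fau. Among the lower neighbours were Ptcd2 beside Mrps27 (-1.68 and -1.56), Eme1 beside Mrpl27 (-1.78 and -0.54) and Hira, a histone chaperone, beside Mrpl40 (-0.50 and -1.18). Overlaps between members and neighbours in the authors' annotation were not checked here.

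**Figure D4:**
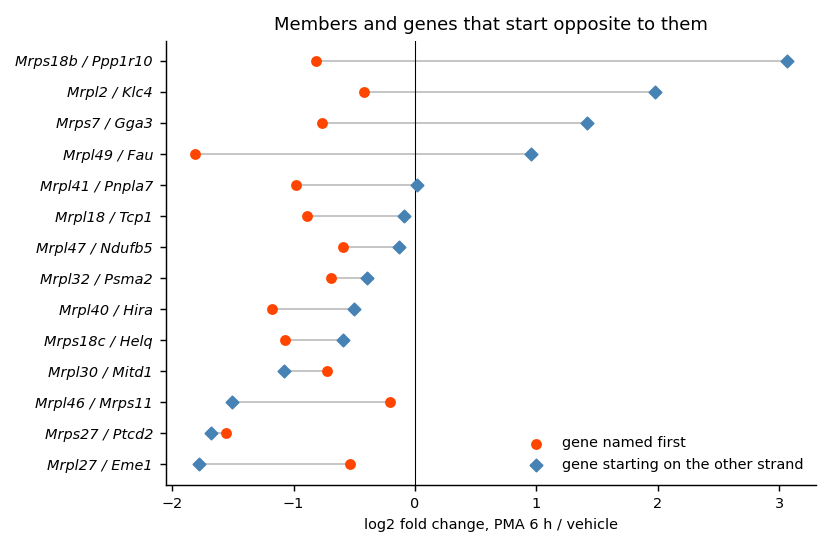
Log2 fold change of PMA 6 h over vehicle for 14 members (circles, the gene named first) and for the gene that starts within 1000 bases on the other strand (diamonds); Mrps11 in the pair Mrpl46 / Mrps11 is itself a member. The 4 top diamonds, Ppp1r10, Klc4, Gga3 and Fau, lie right of 0 while their partners Mrps18b, Mrpl2, Mrps7 and Mrpl49 lie left of it.

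Promoter letters were read in windows of 300 bases (250 before and 50 after the annotated start, RefSeq GRCr8), which were at hand for 54 of the 69 members in 56 windows. Motifs were searched on both strands, and no matches of different motifs shared a base. The letters AAGATGGC, the core bound by YY1, stood in 25.0% of the members' windows (14 windows), beside 5.75% of the windows of all tested genes and 3.17% of all windows. CGCATGCG, the core bound by nuclear respiratory factor 1, stood in 10.7% (6 windows), beside 3.76% and 1.66%. CCGGAAGT, the ETS core that GABP binds, stood in 14.3% (8 windows), beside 8.99% and 3.81%. CACGTG, the E-box, stood in 10.7%, beside 9.37% and 6.42%, and TGACTCA, the AP-1 site, in 3.57%, beside 3.80% and 4.63%. GGGCGG, the GC box, stood in 50.0%, beside 64.1% and 33.1%, and TATAAA, the TATA box, in 14.3%, beside 6.20% and 14.2%. The members' windows had a median GC content of 55.8%, beside 61.3% in tested genes and 51.7% in all.

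The YY1 letters are shown for the members with the deepest falls that held them and for Mrps18a and Mrpl46, which were not called lower, and the letters of nuclear respiratory factor 1 for Mrpl17, Mrps18b and Mrpl44, of which the last had no call at 6 h. Each line gives 30 bases with the match in capitals, in the direction of the gene.
Mrps10 (chr9:21122405-21122434, minus strand): gtcagggcaccAAGATGGCggcgcgcgcag
Mrpl49 (chr1:212779293-212779322, minus strand): ttggaggagcaAAGATGGCagcaaatgtat
Mrpl50 (chr5:68668043-68668072, minus strand): ggagcttgtcgAAGATGGCggcgctgtgtg
Mrps27 (chr2:32474222-32474251, plus strand): tggtacgctccAAGATGGCggcccccatgg
Mrpl46 (chr1:142116988-142117017, minus strand): gggaagacggaAAGATGGCggcgcccatag
Mrps18a (chr9:22367362-22367391, minus strand): ggtgtgttcccAAGATGGCggccctcaggg
Mrpl17 (chr1:169575735-169575764, minus strand): aggctctgatgCGCATGCGcaagcacccct
Mrps18b (chr20:2842976-2843005, plus strand): tccttgtccggCGCATGCGcagtcgttctt
Mrpl44 (chr9:88554908-88554937, plus strand): agaagcacttgCGCATGCGcactatgctag
Of the 14 matches to the YY1 core, 12 lay in the direction of the gene and 11 at or after its annotated start. The letters hold ATG and may coincide with the start of translation, which the sequence table does not mark. Members with the YY1 core had a median log2 fold change at 6 h of -0.82 (13 tested genes), beside -0.79 in the 39 tested genes with a window that lacked it. For the core of nuclear respiratory factor 1 the medians were -0.79 with it (6 genes) and -0.83 without it (46 genes), and for the ETS core -0.54 (7 genes) and -0.82 (45 genes). Among members with the same core, Mrps10 fell 4.49-fold and Mrpl46 had no call.

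In a smaller group the level was higher at 12 h than at 6 h. Mrpl15, the counterpart of a bacterial large subunit protein, stood at 24.8, 27.0 and 21.2 CPM in vehicle, 12.0, 12.2 and 10.1 CPM at 6 h and 19.5, 21.9 and 23.2 CPM at 12 h. The 6 h libraries were the lowest, and the 12 h libraries overlapped those of vehicle. At 12 h it was higher than at 6 h (log2 fold change 0.91 ± 0.14, adjusted p = 4.2e-05) and had no call against vehicle (-0.18 ± 0.13, adjusted p = 0.23). With upper-quartile scaling Mrpl15 was still called lower than vehicle at 12 h (-0.45), and so were Mrpl41 and Mrpl48 (-0.38 for each). Mrpl41, a mitochondria-specific protein, did likewise at 31.6, 33.8 and 34.8 CPM in vehicle, 17.8, 17.9 and 15.0 CPM at 6 h and 32.6, 28.8 and 31.4 CPM at 12 h. Its 6 h libraries lay apart from all others, with log2 fold changes of -0.98 ± 0.11 at 6 h against vehicle and 0.87 ± 0.12 at 12 h against 6 h (adjusted p = 8.2e-06). Mrpl48 showed the same calls at 13.8, 13.8 and 15.3 CPM in vehicle, 9.27, 11.3 and 9.02 CPM at 6 h and 11.6, 12.9 and 15.3 CPM at 12 h. Its 12 h libraries reached into the range of vehicle, but its rise of 0.43 ± 0.16 from the 6 h level had an adjusted p of 0.037 and was lost without normalization (log2 fold change 0.38, adjusted p = 0.055). It was also lost without vehicle replicate 2 (0.43), PMA 6 h replicates 1 or 3 (0.39 and 0.37) or PMA 12 h replicates 2 or 3 (0.45 and 0.32).

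In 6 members the 12 h level was above the 6 h level and still below vehicle: Mrpl10, Mrps10, Mrps12, Mrps24, Mrps26 and Mrps28. Mrps12, which lies at the decoding centre, stood at 27.4, 25.3 and 29.5 CPM in vehicle, 15.6, 16.1 and 11.4 CPM at 6 h and 21.2, 19.8 and 23.1 CPM at 12 h. Groups did not overlap, and the log2 fold change was -0.93 ± 0.14 at 6 h, -0.36 ± 0.14 at 12 h (adjusted p = 0.024) and 0.57 ± 0.14 between the PMA times (adjusted p = 0.0029). The call of Mrps12 at 12 h ended on leaving out vehicle replicate 3 (-0.31), or PMA 12 h replicate 1 or 2 (-0.35 and -0.31). Mrps24, a counterpart of a bacterial protein at the mRNA entry, stood at 31.1, 27.8 and 29.7 CPM in vehicle, 7.96, 11.4 and 10.3 CPM at 6 h and 14.4, 13.3 and 19.8 CPM at 12 h, and rose by 0.67 ± 0.17 from 6 h to 12 h (adjusted p = 0.0031). Mrpl10, which anchors Mrpl12 at the stalk, stood at 53.3, 47.0 and 46.6 CPM in vehicle, 29.6, 24.1 and 29.3 CPM at 6 h and 36.6, 34.3 and 38.7 CPM at 12 h. It was 0.40 ± 0.11 higher at 12 h than at 6 h on the log2 scale (adjusted p = 0.0059), whereas Mrpl12 gave 0.05 ± 0.11 with no call. Between the PMA times Mrps26 was higher at 12 h by 0.72 ± 0.17, Mrps28 by 0.61 ± 0.23 and Mrps10 by 0.45 ± 0.16, and limma-voom did not call Mrps28 or Mrps10 (adjusted p = 0.066 and 0.071). The call of Mrps28 between the PMA times was lost without any of 5 libraries, PMA 6 h replicates 1 or 3 (0.63 and 0.43) or PMA 12 h replicates 1, 2 or 3 (0.57, 0.60 and 0.65). That of Mrps10 was lost without PMA 6 h replicate 3 (0.41) or PMA 12 h replicate 1 (0.34).

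Another group fell further. Mrpl47, which lies near the exit tunnel, stood at 13.0, 9.45 and 10.04 CPM in vehicle, 6.78, 7.71 and 7.11 CPM at 6 h and 3.06, 3.49 and 3.03 CPM at 12 h. The 3 groups did not overlap, and the fall from 6 h to 12 h (-1.17 ± 0.21, adjusted p = 0.00017) was the largest of any member. Its call at 6 h was lost without vehicle replicate 1, at a log2 fold change of -0.44. Mrpl42, a mitochondria-specific protein, stood at 45.6, 39.9 and 38.3 CPM in vehicle, 22.4, 19.7 and 20.0 CPM at 6 h and 14.2, 15.0 and 10.8 CPM at 12 h. It was lower in every library at 12 h than in any at 6 h (log2 fold change -0.63 ± 0.14, adjusted p = 0.00095). Mrpl1, which forms a stalk where tRNA leaves the ribosome, stood at 7.08, 5.97 and 5.05 CPM in vehicle, 3.53, 2.57 and 3.53 CPM at 6 h and 1.91, 1.45 and 2.25 CPM at 12 h. At these low levels its log2 fold change of -0.79 ± 0.29 between the PMA times had an adjusted p of 0.03, and the call was lost without PMA 6 h replicates 1 or 3 (-0.72 and -0.71) or PMA 12 h replicates 1 or 2 (-0.80 and -0.63), and by limma-voom (-0.80, adjusted p = 0.068). Mrps17 fell by 0.36 from 6 h to 12 h (adjusted p = 0.014), at 24.6, 22.0 and 22.8 CPM at 12 h, against 29.1, 28.1 and 32.0 CPM at 6 h. Leaving out PMA 6 h replicate 3 or PMA 12 h replicate 2 ended that call (-0.30 and -0.32), and leaving out vehicle replicate 2 ended the one at 6 h (-0.29).

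The later fall included members that had no call at 6 h. Mrps22, a mitochondria-specific protein of the small subunit in which human variants cause a respiratory chain disorder, stood at 29.6, 26.2 and 26.0 CPM in vehicle, 20.8, 23.5 and 26.5 CPM at 6 h and 14.2, 15.8 and 13.2 CPM at 12 h. Its 12 h libraries were below all others, while the 6 h libraries overlapped vehicle, and the log2 fold changes were -0.21 ± 0.13 at 6 h (adjusted p = 0.14), -0.92 ± 0.13 at 12 h (adjusted p = 5.7e-06) and -0.71 ± 0.13 between them (adjusted p = 0.00025). Mrps2, a counterpart of a bacterial small subunit protein, stood at 45.8, 42.7 and 42.7 CPM in vehicle, 35.9, 35.4 and 43.0 CPM at 6 h and 27.2, 27.1 and 23.8 CPM at 12 h. It had no call at 6 h (-0.20 ± 0.10) and fell by 0.75 on the log2 scale at 12 h (adjusted p = 6.4e-06). Without PMA 6 h replicate 3, the highest of the 6 h libraries in Mrps22 and Mrps2, both were called lower at 6 h too (-0.31 for each). Mrpl44, whose fold resembles RNase III, stood at 22.1, 21.1 and 19.8 CPM in vehicle, 18.1, 20.6 and 17.5 CPM at 6 h and 12.7, 13.9 and 14.5 CPM at 12 h. Its 12 h libraries lay below all 6 h and vehicle libraries, with -0.62 ± 0.13 against vehicle (adjusted p = 0.00033) and -0.45 ± 0.13 against 6 h.

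**Figure D5:**
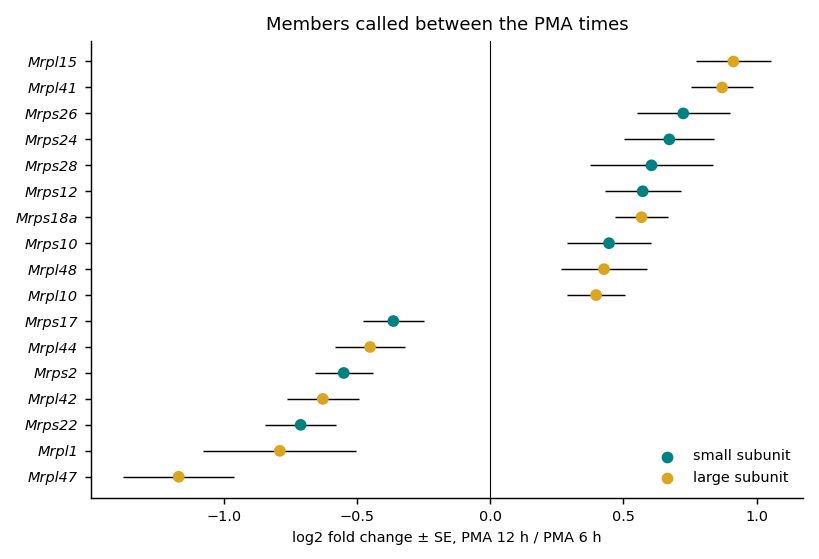
Log2 fold change of PMA 12 h over PMA 6 h, with SE from edgeR's model, for the 17 members called between the PMA times, coloured by subunit. Values run from -1.17 in Mrpl47 to 0.91 in Mrpl15, with 10 members right of 0 and 7 left of it.

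Mrps18a was the only member called higher than vehicle at either PMA time. Mammals carry 3 relatives of a single bacterial small subunit protein under this name, and the protein of Mrps18a sits in the large subunit. The gene stood at 31.5, 38.3 and 35.3 CPM in vehicle, 39.3, 35.3 and 35.5 CPM at 6 h and 54.0, 52.7 and 56.5 CPM at 12 h. The 12 h libraries were above all others, whereas 6 h and vehicle overlapped. Its log2 fold change was 0.64 ± 0.10 at 12 h (adjusted p = 1.6e-05) and 0.07 ± 0.10 at 6 h, and with library totals alone it was 0.05 at 12 h (adjusted p = 0.61) and -0.47 at 6 h (adjusted p = 0.00028). Between the PMA times it was higher at 12 h by 0.57 ± 0.10 (adjusted p = 0.00015). Both paralogs, which stay in the small subunit, fell. Mrps18b stood at 33.5, 34.9 and 32.6 CPM at 6 h, against 60.4, 58.5 and 58.7 CPM in vehicle, a log2 fold change of -0.82 ± 0.11 (adjusted p = 1.7e-06). Mrps18c stood at 9.13, 8.89 and 11.0 CPM at 6 h, against 22.7, 19.6 and 18.5 CPM in vehicle, a log2 fold change of -1.07 ± 0.15 (adjusted p = 6.3e-06). Mrps30, named for the small subunit but placed in the large one, stood at 26.0, 23.1 and 25.1 CPM at 6 h, against 53.6, 41.3 and 41.4 CPM in vehicle, a log2 fold change of -0.88 ± 0.13 (adjusted p = 8.5e-06).

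Of the tested members 8 had no call in any comparison. Mrps36 is one of them, and its protein is no part of the ribosome: it is an adaptor of the oxoglutarate dehydrogenase complex of the citric acid cycle. It stood at 12.3, 10.1 and 12.6 CPM in vehicle, 8.99, 11.3 and 11.8 CPM at 6 h and 12.9, 9.59 and 11.9 CPM at 12 h, and the groups overlapped (log2 fold changes -0.12 ± 0.17 and -0.02 ± 0.17). Mrps21 stood at 33.1, 34.4 and 33.0 CPM in vehicle, 32.5, 29.4 and 31.0 CPM at 6 h and 30.5, 29.6 and 44.1 CPM at 12 h. Its 6 h libraries lay below all vehicle libraries, and the third 12 h library was above the rest. The log2 fold changes were -0.11 ± 0.13 and 0.05 ± 0.13, and with library totals alone the value at 12 h was -0.54. Mrps31 stood at 14.4, 13.5 and 17.6 CPM in vehicle, 18.6, 14.3 and 12.0 CPM at 6 h and 12.9, 12.6 and 9.97 CPM at 12 h. The 6 h libraries overlapped vehicle, and the 12 h libraries lay below it. Its log2 fold changes were -0.02 ± 0.18 and -0.36 ± 0.18, and without PMA 6 h replicate 3 it was lower at 12 h than at 6 h (-0.47, adjusted p = 0.042).

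Mrpl52, Mrpl54 and Mrpl43, all mitochondria-specific proteins of the large subunit, had a 12 h replicate 3 far above the other 12 h libraries. That library also had the highest shares of multimapping reads (7.74%) and ambiguous reads (0.740%) of all libraries. Whether this bears on these genes was not tested. Mrpl52 stood at 40.6, 42.6 and 42.5 CPM in vehicle, 59.2, 48.8 and 51.6 CPM at 6 h and 50.8, 39.4 and 70.0 CPM at 12 h. All its 6 h libraries were above all vehicle libraries, the one member of which this held, with 0.35 ± 0.16 at 6 h (adjusted p = 0.065) and 0.35 ± 0.16 at 12 h (adjusted p = 0.066). Mrpl54 stood at 27.8, 30.8 and 25.4 CPM in vehicle, 30.7, 28.9 and 22.0 CPM at 6 h and 31.2, 28.0 and 51.2 CPM at 12 h, and Mrpl43 at 57.4, 51.1 and 53.8 CPM in vehicle, 52.5, 48.4 and 38.2 CPM at 6 h and 47.8, 43.2 and 65.5 CPM at 12 h. Without PMA 12 h replicate 2, Mrpl52 and Mrpl54 passed the test at 12 h, with log2 fold changes of 0.53 and 0.55, and Mrpl54 was also higher at 12 h than at 6 h (0.60). Mrpl52 passed the test at 6 h without PMA 12 h replicate 2 or 3 (0.35 and 0.34), which belong to neither group compared. Mrpl30 stood at 1.29, 1.16 and 0.478 CPM in vehicle, 0.761, 0.514 and 0.520 CPM at 6 h and 0.408, 0.291 and 0.780 CPM at 12 h, close to the reach of these libraries, and RefSeq names 9 pseudogenes of it, whose reads could be shared with it. In all, 23 members have a named pseudogene, and how reads were split between such copies was not checked here.

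The 2 members that were not tested had almost no reads. Mrpl36 had 0 reads in every library, and Mrpl53 had 2 reads, both in PMA 6 h replicate 3. A gene with 0 reads in a group could have had up to 0.0661 CPM at 6 h, 0.0750 CPM at 12 h and 0.0460 CPM in vehicle, a limit set at 3 counts over the group that covers counting error only.

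Subunits that the files list under other names were mostly lower at 6 h too, and less uniformly so at 12 h. A list of 7 genes with names of their own held subunits and the insertase Oxa1l, which is not a subunit. In this list 5 fell and 1 rose at 6 h, and 4 fell and 1 rose at 12 h. The riser was Oxa1l at both times. Of all genes, 39.0% were called lower and 37.8% higher at 6 h, and 38.2% lower and 37.7% higher at 12 h. The falls were largest in Ptcd3, a small subunit protein with pentatricopeptide repeats (-1.11 ± 0.12 at 6 h and -1.85 ± 0.12 at 12 h), and were -0.41 for Dap3, -0.52 for Ict1, -0.67 for Gadd45gip1 and -0.28 for Chchd1 at 6 h. Aurkaip1 had no call at 6 h (-0.19) and was lower at 12 h (-0.38). Oxa1l, an insertase of the inner membrane that contacts the ribosome, rose by 0.66 and 0.70. Gadd45gip1 had no call at 12 h (0.06, and -0.52 with library totals alone). Of 4 subunits spelled otherwise in the files, mrpl11 (-1.34), mrpl24 (-0.91) and Mrp63 (-0.39) fell at 6 h, and mrpl9 rose by 0.35, a direction that turned to -0.19 with library totals alone. At 12 h mrpl11 (-1.13) and mrpl24 (-0.97) were lower, mrpl9 was higher (0.39) and Mrp63 had no call (0.31). All 12 h libraries of Mrp63 were above its vehicle libraries, and it was higher at 12 h than at 6 h (0.70, adjusted p = 0.0018).

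The factors that work with the ribosome were mostly lower as well. Beside the counts in the lists that follow, 39.0% of all genes were called lower and 37.8% higher at 6 h, and 38.2% lower and 37.7% higher at 12 h. Of 14 translation factors and mRNA stabilisers of mitochondria, 10 fell and 4 had no call at 6 h (median log2 fold change -0.71), and 11 fell and 3 had no call at 12 h (median -0.68). The largest falls at 6 h were in Mtfmt, which formylates the initiator tRNA (-2.23 ± 0.25), and Guf1, an elongation factor homolog (-2.23 ± 0.19), and the smallest among those called were in Tufm, the elongation factor that brings tRNA (-0.49), and Lrpprc, a stabiliser of mRNA (-0.68). Of 20 assembly factors 11 fell and 2 rose at 6 h (median -0.72), and 15 fell and 5 had no call at 12 h (median -1.03). Mettl15, a methylase of the small ribosomal RNA, and Tfb1m, a dimethylase of the same RNA, fell most (-3.80 ± 0.75 and -2.54 ± 0.24). Mettl15 had few reads, at 2.24, 1.25 and 2.39 CPM in vehicle and 0.415, 0 and 0 CPM at 6 h. The size of its fall is therefore uncertain. Ngrn (0.85) and Mterfd2 (0.62) were higher at 6 h and had no call at 12 h (-0.08 and -0.40).

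Regulators of mitochondrial biogenesis were mostly higher. Of 8 regulators tested, 6 rose and 2 fell at 6 h (median 0.96), and 5 rose and 1 fell at 12 h (median 0.83). Nrf1, which encodes nuclear respiratory factor 1, stood at 62.7, 66.2 and 71.2 CPM at 6 h, against 18.9, 22.3 and 26.0 CPM in vehicle, and all PMA libraries were above all vehicle libraries (log2 fold change 1.58 ± 0.11, adjusted p = 6.6e-10). Gabpb1, a subunit of GABP, stood at 43.7, 36.9 and 41.0 CPM at 6 h, against 15.9, 17.0 and 17.3 CPM in vehicle (1.28 ± 0.11), and Yy1 at 138, 132 and 137 CPM at 6 h, against 61.5, 57.7 and 66.6 CPM in vehicle (1.13 ± 0.08). Myc, a driver of growth that also acts on ribosome genes, was 0.79 higher at 6 h and 1.40 at 12 h on the log2 scale. Esrra (-0.61) and Pprc1 (-0.47) fell at 6 h, and Esrra had no call at 12 h (0.04, and -0.54 with library totals alone). Genes of mitochondrial DNA upkeep and transcription were split: 7 of 14 fell and 5 rose at 6 h, and 7 fell and 4 rose at 12 h. The polymerase subunits Polg and Polg2 rose by 1.52 and 1.497 at 6 h, while the elongation factor Tefm and the single-strand binding protein Ssbp1 fell (-2.63 and -1.92).

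Import and quality control of mitochondrial proteins, on which the ribosomal proteins depend, gave unlike counts. Of 19 import genes 16 fell and 3 had no call at 6 h (median -0.56), and 13 fell and 1 rose at 12 h (median -0.67). Timm9, a chaperone between the membranes, and Timm21, of the inner membrane translocase, fell most (-1.61 ± 0.20 and -1.46 ± 0.18), and the smallest calls were in Pmpca (-0.17) and Pmpcb (-0.19), the subunits of the peptidase that removes targeting sequences. Pmpcb was higher at 12 h (0.27), and -0.31 with library totals alone. Of 12 chaperones and proteases 5 fell and 3 rose at 6 h, and 7 fell and 1 rose at 12 h, and the share that fell at 6 h, 41.7%, was near the 39.0% of all genes. Htra2, a protease between the membranes (-1.64), and Trap1, a chaperone of the matrix (-1.56), fell most at 6 h. The inner membrane protease Afg3l2 (0.45) and the unfoldase Clpx (0.41) were the highest, both of which turned with library totals alone (-0.090 and -0.12). The members of all these lists were chosen with earlier results of these data known.

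Markers of dividing cells moved with the members. For the marker counts below, the background was 39.0% of all genes called lower and 37.8% higher at 6 h. At 12 h it was 38.2% lower and 37.7% higher. All 10 proliferation markers tested fell at both times, with median log2 fold changes of -4.74 at 6 h and -4.88 at 12 h, and their mean log2 CPM was 1.90 to 2.11 at 6 h and 1.34 to 1.98 at 12 h, against 5.66 to 7.06 in vehicle. Their part in the fall of the members was not tested. In vehicle replicates 1, 2 and 3 the mean log2 CPM of these markers was 5.66, 6.47 and 7.06, and the summed member levels were 2370, 2225 and 2235 CPM. Whether these measures vary together was not tested. All 7 markers of horizontal basal cells had reads in every group. Their summed level was 2489 to 2996 CPM at 6 h and 3913 to 4566 CPM at 12 h, against 14821 to 17016 CPM in vehicle, with Krt5 (-4.08 at 6 h), Krt14 (-2.77) and Tp63 (-2.19) lower. In all 6 of the 7 fell and 1 rose at 6 h, and 5 fell and 2 rose at 12 h: Icam1, an adhesion molecule, rose at both times (0.30 and 1.33), and Egfr, a growth factor receptor, at 12 h (0.64). With library totals alone Icam1 turned to -0.24 at 6 h, and Egfr had no call at 12 h (0.060); the call of Icam1 at 6 h was also lost with upper-quartile scaling (0.042) and without PMA 6 h replicate 2 (0.23). The part of this change in the members' fall was not tested either.

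Markers of other cell types were low or included genes at 0 reads, and several of them changed with PMA. The 6 neuronal markers summed to 4.22 to 6.10 CPM at 6 h and 5.20 to 10.02 CPM at 12 h, against 5.74 to 7.95 CPM in vehicle, with Gap43 at 0 reads. Of the 2 tested, Ncam1 was called higher at 12 h (2.54) and Tubb3 lower at 6 h (-0.82). Ncam1 was low throughout, at 1.22, 2.25 and 1.13 CPM at 12 h, against 0.345, 0.258 and 0.159 CPM in vehicle. The 4 fibroblast markers summed to 2.06 to 3.82 CPM at 6 h and 1.77 to 3.03 CPM at 12 h, against 4.35 to 5.65 CPM in vehicle, with Col1a2 at 0. The 4 immune markers summed to 70.1 to 71.9 CPM at 6 h and 82.6 to 95.3 CPM at 12 h, against 26.1 to 28.9 CPM in vehicle, with Ptprc, which marks leukocytes, at 0 in all groups. The 2 immune markers tested moved apart: Cd68, of lysosomes, rose (1.83 at 6 h and 2.13 at 12 h) and Cd14, a receptor for lipopolysaccharide, fell (-2.40 and -1.25). Of the 5 sustentacular and gland markers Cyp2g1 and Ermn were at 0, and the sum was 1954 to 2015 CPM at 6 h and 2189 to 2530 CPM at 12 h, against 1207 to 1412 CPM in vehicle, carried by Krt8, Krt18 and Sox9.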

How the data were processed

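RNA-seq of 9 libraries, 3 per group by sample title, was analysed. The deposited tables give read counts per gene, unstranded and per strand. Per the submitters' processing notes the authors used STAR 2.7.5b, the rn6 genome and DESeq2 (no version stated). The gene annotation is not given in the sources. The unstranded counts were used, as the strand columns held 49.8% to 50.3% each, and 4 summary lines were left out. A deposited table of 9 normalized columns was not used. Ambiguous reads (0.526% to 0.740%) and multimapping reads (5.95% to 7.74%) were not counted in genes, which can lower genes with near-identical copies.

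Tests used edgeR 4.0.16 in R 4.3.3: filterByExpr (minimum count 10), TMM scaling (factors 1.28 to 1.31 in vehicle, 0.848 to 0.911 with PMA) and a robust quasi-likelihood F test on group alone, with adjusted p under 0.05 over 10128 genes. The coefficient of variation was 11.2%. Replicates differed by a chi-square of 3.88 to 27.8 per degree of freedom, where counting error gives 1, so no library was a copy. The steps were run on simulated data in which few genes changed, as many up as down, in the 6 h group only. This did not try the scaling under changes as broad as those seen here. Alternatives used limma 3.58.1, DESeq2 1.42.0, other scalings, no filter, each library left out and a replicate block. Members and lists were chosen with earlier results of these data known. A gene of the neuronal marker list is not reported here. Named by rule are, per comparison, the 6 called members with the largest rise and fall, members without a call or test, Mrps12, Mrpl12 and members whose name and place differ. Named as well are the 2 highest and lowest called genes per list at 6 h, except in the cytosolic, proliferation and marker lists. Others, such as Mrpl45, Mrps11 and neighbours, were chosen after their values were seen.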

Additional observations from a re-analysis of the deposited data

Results flagged for a closer look

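The difference between the PMA times was itself tested in edgeR's model, and 17 members differed between 12 h and 6 h at an adjusted p under 0.05, beside 25.3% of all genes called higher and 25.8% called lower. Those higher at 12 h were Mrpl15 (0.91 on the log2 scale), Mrpl41 (0.87), Mrps26 (0.72), Mrps24 (0.67), Mrps28 (0.61), Mrps12 (0.57), Mrps18a (0.57), Mrps10 (0.45), Mrpl48 (0.43) and Mrpl10 (0.40). Those lower at 12 h were Mrpl47 (-1.17), Mrpl1 (-0.79), Mrps22 (-0.71), Mrpl42 (-0.63), Mrps2 (-0.55), Mrpl44 (-0.45) and Mrps17 (-0.36).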

How the results depend on the processing

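Of the members' calls, 50 of 55 at 6 h, 49 of 56 at 12 h and 12 of 17 between the PMA times held under all 16 alternatives. The medians moved with the scaling: they were -1.04 and -1.02 (6 h and 12 h against vehicle) with upper-quartile scaling and -1.32 and -1.33 without normalization, where the median of all genes shifted to -0.29 and -0.29, and to -0.57 and -0.60. Relative to all genes the members stayed lower by a like amount. Members called lower were 61 and 61 with upper-quartile scaling and 66 and 64 without normalization, where 0 members were called higher at 12 h. DESeq2 called 1 member higher at 6 h and 2 at 12 h (Mrpl52 added, 0.35 at each time), and edgeR with the replicate block called 1 higher at 6 h (Mrpl52) and did not call Mrpl3 at 6 h or Mrps33 at 12 h (adjusted p = 0.073 and 0.063). Directions turned only without normalization: at 6 h for Icam1 (-0.24), Mrps18a (-0.47), Clpx (-0.12), Afg3l2 (-0.090) and mrpl9 (-0.19), and at 12 h for Mrps21 (-0.54), Gadd45gip1 (-0.52), Esrra (-0.54), Clpx (-0.032), Afg3l2 (-0.51), Pmpcb (-0.31) and mrpl9 (-0.19). The cause was not tested. Leaving out 1 library at a time gave 0 to 1 higher and 52 to 56 lower members at 6 h (median -0.86 to -0.76), 1 to 3 higher and 49 to 55 lower at 12 h (median -0.79 to -0.72), and 8 to 10 higher and 5 to 8 lower between the PMA times (median -0.02 to 0.11). The 3 higher calls came without PMA 12 h replicate 2 and added Mrpl52 (0.53) and Mrpl54 (0.55). Same-numbered libraries did not deviate together (correlations -0.11 to 0.03), so the block was not used for pairing. Low counts limit what can be said of Mrpl30, Mrpl36 and Mrpl53, and why these counts were low was not tested. The 3 libraries per group limit changes near the threshold.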
